A study of Mus musculus with 6 samples.

Results

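The genes described here encode the nuclear-encoded subunits of the oxidative phosphorylation system, the 5 enzyme complexes of the inner mitochondrial membrane that oxidise NADH and succinate and make ATP. They were measured in BV2, an immortalised mouse microglial line, as total RNA on 6 single-colour arrays. Untreated control cells, cells given a lower adenine dose for 1 h and cells given a higher adenine dose for 1 h were represented by 2 arrays each. Adenine, a purine, can be turned into nucleotides by salvage enzymes. The labels disagree on the doses, with 20 and 80 µM in the titles and treatment protocol but 80 and 250 µM among the characteristics, so only their order is used. All groups share this 1 cell line, and the design text speaks of separate cultures without saying which array came from which. If the 2 arrays of a group came from 1 culture, the errors and p-values below measure only technical spread.

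Members were all probes whose symbol in the array's platform annotation begins with Nduf, Uqcr, Atp5, Cox4, Cox5, Cox6, Cox7 or Cox8, or is Sdha, Sdhb, Sdhc, Sdhd or Cyc1. The rule found 88 of 26423 probes, for 78 of 17742 gene symbols, and 9 of these genes had more than 1 probe. Of the 88, 76 probes stood for 68 genes of subunits: 36 probes for complex I, 4 for complex II, 6 for complex III, 18 for complex IV and 12 for complex V. Another 4 probes measured the complex I assembly factors Ndufaf1 to Ndufaf4, and 2 measured Ndufa4, once counted in complex I and now placed in complex IV, and its paralogue Ndufa4l2. The name of the group did not hold for the last 6 probes. Cox4nb is now Emc8, a subunit of an endoplasmic reticulum complex, Atp5s and Atp5sl are now Dmac2l and Dmac2, and Cox7a2l helps to join complexes III and IV. Cyc1 and Cox6b1 were not analysed here.

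Complex I takes electrons from NADH through a set of core subunits shared with bacteria, around which many small accessory subunits are built. Complex II, succinate dehydrogenase, also belongs to the citric acid cycle, and complexes III and IV pass the electrons on to oxygen. Complex V, the ATP synthase, uses the resulting proton gradient. Macrophages and microglia are known to shift between oxidative phosphorylation and glycolysis with their state of activation.

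All values are quantile-normalized intensities, in arbitrary units, and changes are on the log2 scale with the standard error (SE) of a limma fit to all 6 arrays, n = 2 per group. A probe was called when its p, adjusted over all 26423 probes by the Benjamini-Hochberg method, was under 0.05. The deposited array medians ran from 125 to 170 units. Of the 88 member probes, 76 were brighter than the median probe, whose level was 142.2 units, Ndufs6 and Cox7a1 (2 of the 76) only through the higher dose, and 1, for Atp5g3, reached the scanner's ceiling. Of 12 microglia and macrophage markers, 9 were measured and 8 were above the median probe. Cx3cr1 was the exception. Their summed level was 63558 to 68305 units in the controls and 63074 to 72258 at the lower dose. At the higher dose it was 92216 to 104403, and Itgam and Aif1 were called higher, beside 5.55% of all probes. At an unadjusted limma p under 0.05, 4 of the 9 passed at the higher dose, where 29.1% of all probes did. Of 24 markers of astrocytes, neurons, oligodendrocytes, endothelium, fibroblasts and lymphocytes, 19 were measured and 0 were called in limma in either dose comparison. At an unadjusted p under 0.05, 5 passed at the higher dose, where 29.1% of all probes did, and 2 at the lower, where 6.36% did. Their summed level was 5114 to 5450, 5507 to 5603 and 5147 to 5565 units in the 3 groups. The lists within this sum differed. Endothelial markers summed to 2639 to 2714 units in the controls, 3082 to 3147 at the lower dose and 1936 to 2248 at the higher dose. Sums stood higher at the higher dose than in the controls for oligodendrocytes (975 to 1064, then 1387 to 1402.5), lymphocytes (750 to 805, then 956 to 1039) and neurons (337 to 371, then 420 to 464). At the lower dose they were 833 to 1007 for oligodendrocytes, 587 to 684.5 for lymphocytes and 452 to 461 for neurons. Those of astrocytes and fibroblasts overlapped the controls. The part of the marker differences in the results below was not tested. By the labels, all arrays hold BV2 cells, so the sums are given as probe levels and not as numbers of cells of other types. In bulk RNA, the number of cells and the RNA per cell cannot be told apart.

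At the higher dose, most of these genes stood above control. Of the 88 member probes, 48 were called higher, against a background of 5.55% of all probes, and 2 were called lower, against 5.06%. The median change was 0.99, beside −0.01 over all probes, and 76 of 88 changes were positive. Both higher-dose arrays lay above both controls for 67 member probes, against 28.9% of all probes, and below them for 5, against 31.4%. The 2 called lower were Ndufs1, the large iron-sulfur subunit of complex I, and Sdha, the flavoprotein of complex II. Counted with the brightest probe of each gene, 45 of 78 genes were called higher and 2 lower.

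These counts depended on the arrays and the model fitted. With the replicate number as a block, 0.0151% of all probes were called higher and 0.0265% lower. The 48 probes called higher became 0 when either control or either higher-dose array was left out or the replicate number was added as a block, and 34 without either lower-dose array or when the lower dose was left out altogether. The count called lower fell from 2 to 0 in each of these fits. The background fell with them, to between 0.00378% and 0.0265% higher without a control or higher-dose array and to 3.55% without a lower-dose array, while the median member change stayed between 0.93 and 1.05.

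**Figure D1:**
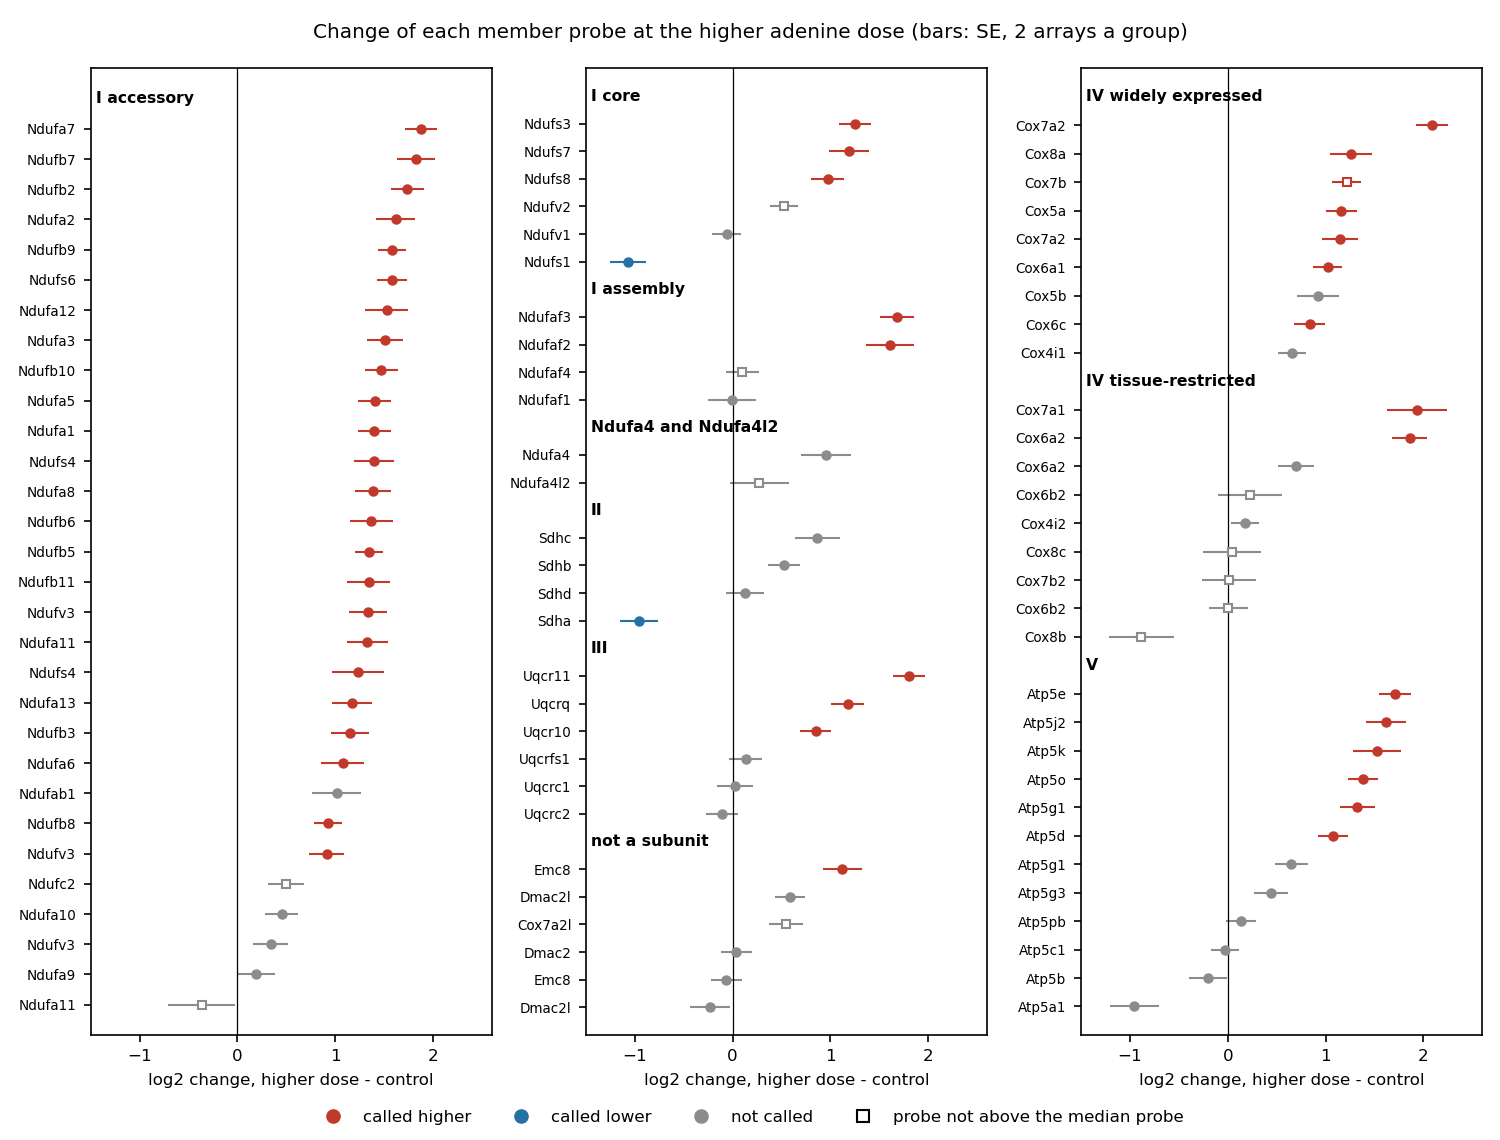
Log2 change of each of the 88 member probes between the higher dose and control, one row a probe, with the SE from the limma fit (2 arrays a group). Red points are probes called higher (48), blue points are called lower (Ndufs1 and Sdha), grey points are not called, and open squares are probes not above the median probe.

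The share of called probes differed between complexes. Higher calls numbered 27 of 36 probes in complex I, 0 of 4 in complex II, 3 of 6 in complex III, 9 of 18 in complex IV and 6 of 12 in complex V, with median changes of 1.29, 0.33, 0.49, 0.88 and 0.86. Within complex I, 24 of 30 accessory probes were called higher (median 1.34) and 3 of 6 core probes (median 0.75). Members of a complex are not replicates, so these shares are a description and no test between complexes was made. On the 2 higher-dose arrays, the median of the accessory complex I probes stood 1.38 and 1.35 above the control mean, that of the widely expressed complex IV subunits 1.11 and 1.11, and that of complex II 0.33 and 0.33. The lower-dose medians lay between −0.17 and 0.32 in all 8 classes plotted.

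**Figure D2:**
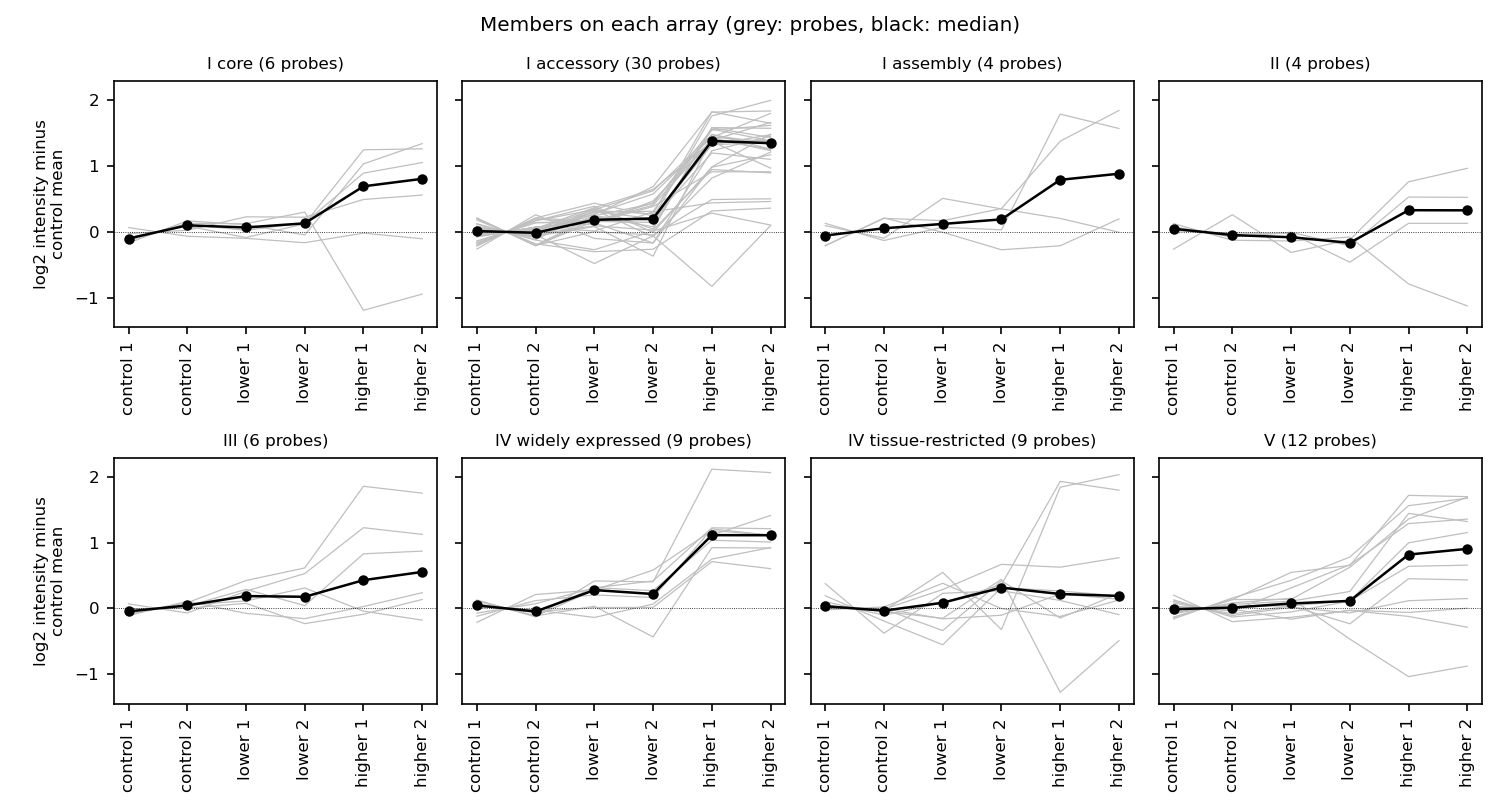
Log2 intensity minus the control mean for the member probes of 8 classes on each of the 6 arrays. Grey lines are probes and black points are the median of the class. The accessory complex I median is 1.38 and 1.35 on the higher-dose arrays, while complex II holds 1 falling line, Sdha.

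In complex I, the accessory subunits with the smallest p were Ndufa7, Ndufb9, Ndufb2 and Ndufs6. Ndufa7 read 1825 and 2014 units in the controls, 2160 and 2230 at the lower dose and 6503 and 7658 at the higher dose. Both higher-dose arrays lay above the other 4, and the gene rose 3.68-fold (log2 1.88 ± 0.16, limma adjusted p = 0.0185). Ndufb9 read 4230 and 4041, then 5100 and 5137, then 12081 and 12692 units, a rise of 3.00-fold (1.58 ± 0.14, adjusted p = 0.0185). Its arrays fell into 3 steps without overlap, although the lower-dose step was not called (0.31 ± 0.14, adjusted p = 0.767). Ndufb2 rose 3.34-fold (1.74 ± 0.17) and Ndufs6, a zinc-binding subunit, 2.99-fold (1.58 ± 0.15), both at adjusted p = 0.0186. Ndufs6 is a dim probe, at 121 and 111 units in the controls, 136 and 122 at the lower dose and 347 and 344 at the higher dose.

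The core subunits of complex I did not move together. Ndufs3 (1.25 ± 0.16, adjusted p = 0.0208), which lies in the arm that reaches into the matrix, rose 2.39-fold. Ndufs7 (1.19 ± 0.20, adjusted p = 0.0312) and Ndufs8 (0.97 ± 0.17, adjusted p = 0.0311), which carry iron-sulfur clusters near the ubiquinone site, rose 2.28-fold and 1.96-fold. Ndufs1, the large iron-sulfur subunit, read 7912 and 9493 units in the controls, 9456 and 10678 at the lower dose and 3797 and 4504 at the higher dose. It fell to levels below all other arrays, 2.1-fold lower than control (−1.07 ± 0.19, adjusted p = 0.0319). It was called in 5 of 14 alternative fits, with values from −1.21 to −0.92. Ndufv1, which binds NADH and the flavin, read 23323 and 21292 units in the controls, 20826 and 19893 at the lower dose and 22003 and 20741 at the higher dose. The higher-dose arrays overlapped the controls, and both lower-dose arrays lay below them. Its change at the higher dose was −0.06 ± 0.15 (adjusted p = 0.828), and 0.30 without normalization and 0.23 with equal array medians. Ndufv2, its iron-sulfur partner, was measured by a probe below the median (0.53 ± 0.14, adjusted p = 0.0776).

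The probes of Ndufa11 and of Ndufv3 disagreed. The brighter Ndufa11 probe rose (1.33 ± 0.21, adjusted p = 0.0271), and the second, at 64 to 122 units on all arrays, did not pass (−0.37 ± 0.34, adjusted p = 0.54). Of 3 Ndufv3 probes, 2 were called higher (0.91 ± 0.18 and 1.34 ± 0.20) and the dimmest was not (0.34 ± 0.18, adjusted p = 0.286). Both Ndufs4 probes were called higher. Of the assembly factors, Ndufaf2 (1.61 ± 0.24, adjusted p = 0.0258) and Ndufaf3 (1.68 ± 0.17, adjusted p = 0.0197) rose. Ndufaf1 stood at −0.01 ± 0.24 and the dim Ndufaf4 probe at 0.10 ± 0.17.

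Complex II has 4 subunits, and 1 was called. Sdha, the flavoprotein that oxidises succinate, read 15314 and 12861 units in the controls, 12753 and 13301 at the lower dose and 8114 and 6439 at the higher dose. It fell 1.94-fold (−0.96 ± 0.19, adjusted p = 0.0418), with both higher-dose arrays below the other 4. The remaining members did not pass: the iron-sulfur subunit Sdhb (0.53 ± 0.16, adjusted p = 0.102), and the membrane anchors Sdhc (0.86 ± 0.23, adjusted p = 0.0764) and Sdhd (0.13 ± 0.19, adjusted p = 0.705). Sdhb read 20668 and 18555 units in the controls, 19508 and 16889 at the lower dose and 28265 and 28188 at the higher dose, so its higher-dose arrays lay above the rest. Sdha was called in 4 of 14 alternative fits, with values from −1.10 to −0.75. Of the same 14, Sdhb and Sdhc were each called higher in 3, and Sdhd in 0. Both Sdhb and Sdhc were called with a trended prior. The size of these changes depended on the scaling. Without normalization Sdha, Sdhb, Sdhc and Sdhd stood at −0.754, 0.885, 1.1 and 0.51, and with equal array medians at −0.828, 0.812, 1.03 and 0.437.

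Of the 6 complex III members measured, the 3 small accessory subunits were called and the 3 others were not. Uqcr11 read 1315 and 1482 units in the controls, 1873 and 2137 at the lower dose and 5051 and 4699 at the higher dose, and rose 3.49-fold (1.80 ± 0.16, adjusted p = 0.0185). Uqcrq (1.18 ± 0.17, adjusted p = 0.0244) and Uqcr10 (0.85 ± 0.16, adjusted p = 0.0375), also small accessory proteins, rose 2.26-fold and 1.8-fold. Uqcrc1, a core protein of the matrix side, read 14359 and 14432 units in the controls, 15189 and 12264 at the lower dose and 13538 and 15820 at the higher dose. These groups overlapped, with a change of 0.02 ± 0.18 (adjusted p = 0.951) that turned to −0.03 once the span trend was taken out. The Uqcrc1 change was 0.29 without normalization and 0.22 with equal array medians, without a call. The second core protein, Uqcrc2, stood at −0.11 ± 0.16 (adjusted p = 0.701), and at 0.26 without normalization and 0.18 with equal array medians. The Rieske iron-sulfur protein, Uqcrfs1, stood at 0.13 ± 0.17 (adjusted p = 0.652), and at −0.04 once the span trend was taken out. Without normalization Uqcrfs1 stood at 0.50, and with equal array medians at 0.43, again without a call.

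The catalytic core of complex IV is encoded in mitochondrial DNA, and its surrounding subunits are nuclear. All 9 probes of the widely expressed nuclear subunits had positive changes and 7 were called. Cox5a read 21610 and 25472 units in the controls, 27051 and 26324 at the lower dose and 54222 and 50708 at the higher dose, and rose 2.23-fold (1.16 ± 0.16, adjusted p = 0.023). Its control and lower-dose arrays lay next to each other, and the higher-dose pair stood apart. Cox6a1 rose 2.03-fold (1.02 ± 0.15, adjusted p = 0.0239), and Cox8a 2.4-fold (1.26 ± 0.21, adjusted p = 0.0303). Cox7b was called by a dim probe, at 22 and 25 units in the controls and 55 and 54 at the higher dose, whose change depended on the offset (1.22 ± 0.15, adjusted p = 0.0204, and 0.84 with log2(value + 16)), and no flag shows it above background. The Cox7a2 probes were both called, at 1.15 ± 0.18 by the brighter and 2.09 ± 0.16 by the dimmer, the largest change among all member probes. Cox4i1 (0.66 ± 0.15, adjusted p = 0.0515) and Cox5b (0.92 ± 0.21, adjusted p = 0.0562) did not pass, and both were called with log2(value + 16), with a trended prior and among probes above the median. Cox4i1 was called in 5 of 14 alternative fits, with values from 0.51 to 0.98, and Cox5b in 3, with values from 0.72 to 1.03.

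Some complex IV subunits have isoforms largely restricted to heart and skeletal muscle (Cox6a2, Cox7a1, Cox8b), testis (Cox6b2, Cox7b2, Cox8c) or lung (Cox4i2). Of their 9 probes, 5 were not above the median probe. The muscle isoforms Cox7a1 and Cox6a2 were called. Cox7a1 read 98 and 94 units in the controls, 141 and 77 at the lower dose and 345 and 394 at the higher dose, a 3.83-fold rise (1.94 ± 0.31, adjusted p = 0.0278). One Cox6a2 probe read 263 and 228, then 260 and 314, then 931 and 850 units (1.86 ± 0.18, adjusted p = 0.0186). The other read 244 and 241, then 296 and 386, then 374 and 413 units and did not pass (0.70 ± 0.19, adjusted p = 0.0782), so the 2 probes of this short gene gave different calls. The third muscle isoform, Cox8b, had a value of −0.88 ± 0.34 (adjusted p = 0.162) at 23 to 76 units on all arrays. The testis isoforms Cox6b2, Cox7b2 and Cox8c stood between 0.00 and 0.23 and the lung isoform Cox4i2 at 0.18 ± 0.14, all without a call, and the sign of the second Cox6b2 probe, Cox7b2 and Cox8c changed with the processing.

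In complex V, 6 of 12 probes were called, for Atp5d, Atp5e, Atp5g1, Atp5j2, Atp5k and Atp5o, and the alpha, beta and gamma subunits of the F1 head were not. Atp5e, the epsilon subunit, read 3561 and 4286 units in the controls, 5708 and 6143 at the lower dose and 12850 and 12677 at the higher dose. The 3 groups did not overlap, and the higher dose stood 3.27-fold above control (1.71 ± 0.17, adjusted p = 0.0186). The membrane subunit Atp5j2 rose 3.07-fold (1.62 ± 0.21, adjusted p = 0.0206), and Atp5o, which ties the head to the outer stalk, rose 2.61-fold (1.38 ± 0.16, adjusted p = 0.0199). Of the genes for the proton-carrying ring, Atp5g1 rose by its brighter probe (1.32 ± 0.18, adjusted p = 0.0222), while its dimmer probe did not pass (0.65 ± 0.17, adjusted p = 0.0727). Atp5g3 had deposited values of 65486 and 65484 at the higher dose, at the ceiling of the scale, so its difference from control, at least 1.36-fold, is a lower bound and did not pass (0.44 ± 0.17, adjusted p = 0.164).

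Atp5a1, the alpha subunit, read 18845 and 21168 units in the controls, 22212 and 14461 at the lower dose and 9742 and 10884 at the higher dose. Its higher-dose arrays lay below the other 4, but the change did not pass (−0.96 ± 0.25, adjusted p = 0.0719), and it was called lower with log2(value + 16), with a trended prior and among probes above the median. The catalytic beta subunit, Atp5b, read 3796 and 2873, then 3007 and 3230, then 3036 and 2710 units, with overlapping groups (−0.20 ± 0.20, adjusted p = 0.549). The gamma subunit, Atp5c1, stood at −0.03 ± 0.15 (adjusted p = 0.923), and at 0.0004 without normalization. Atp5pb, the b subunit of the outer stalk, stood at 0.13 ± 0.16.

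**Figure D3:**
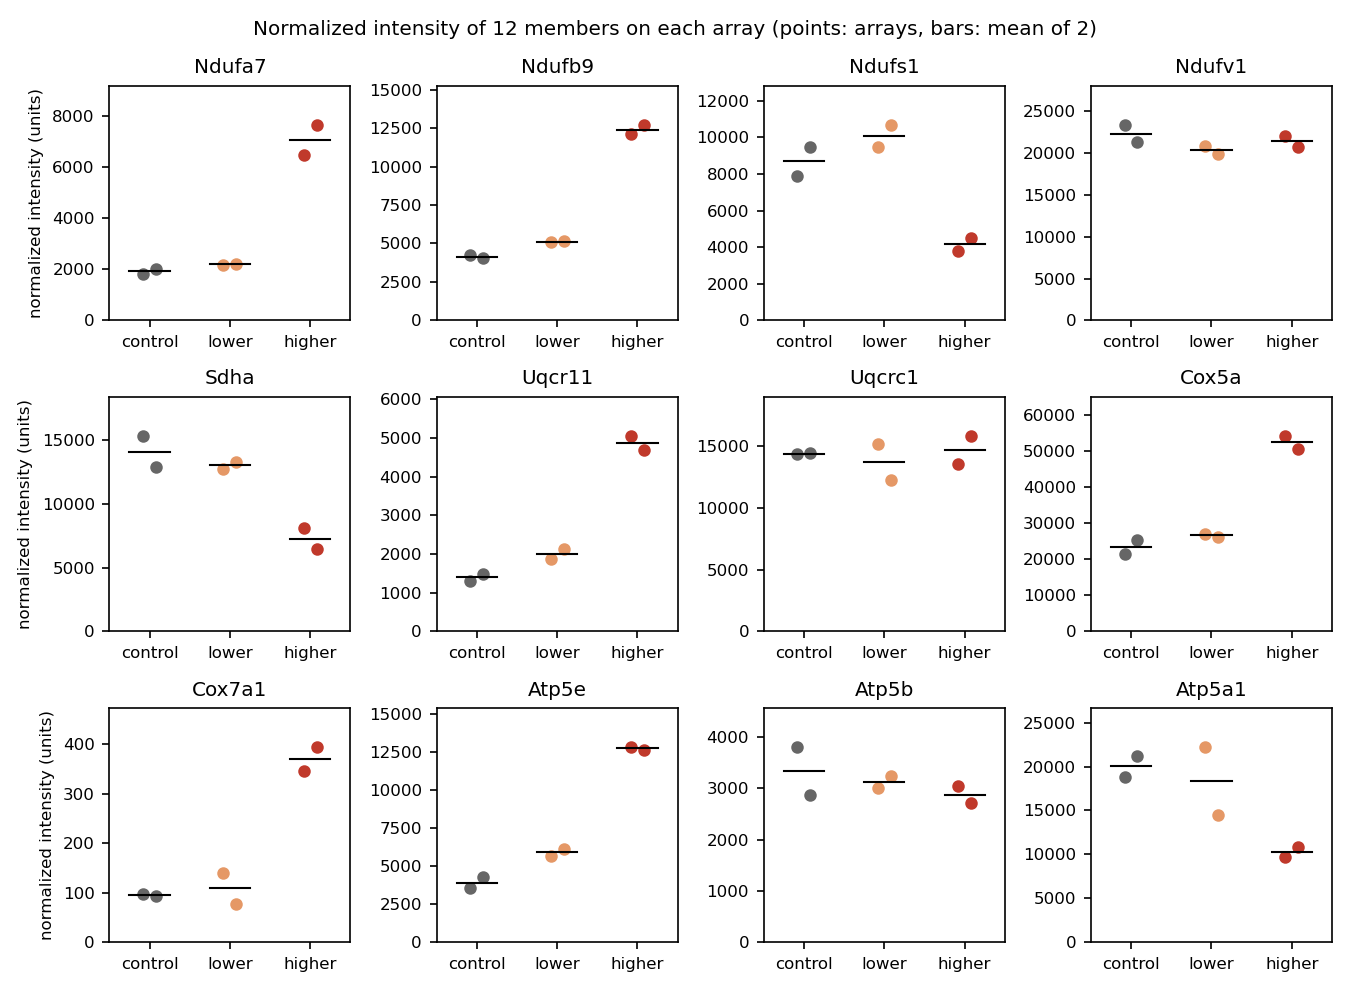
Normalized intensity (units, linear axis from 0) of 12 members on each array, with 1 panel a gene, points for arrays and bars for the mean of 2. Ndufa7, Ndufb9, Uqcr11, Cox5a, Cox7a1 and Atp5e have both higher-dose arrays above the rest, Ndufs1, Sdha and Atp5a1 have them below, and in Ndufv1, Uqcrc1 and Atp5b the higher-dose arrays overlap the controls.

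Among the probes not counted above with the 5 complexes, 1 Emc8 probe was called (1.12 ± 0.20, adjusted p = 0.0335) and the other, at 216 to 314 units, was not (−0.07 ± 0.16). The Dmac2l probes differed in sign without a call (0.59 ± 0.15 and −0.23 ± 0.21). Dmac2 stood at 0.04 ± 0.15. Ndufa4 stood at 0.96 ± 0.25 (adjusted p = 0.0758), with both higher-dose arrays, at 22711 and 28528 units, above the other 4.

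The second comparison asked whether the lower dose differed from control. Of the 88 probes, 0 were called by limma in either direction, against a background of 0.0114% of all probes. At an unadjusted p under 0.05, 8 passed (6.36% of all probes did), of which 7 were higher (3.39% of all probes were) and 1, Cox7a2l, was lower. The 7 were Atp5e (0.60 ± 0.17), Atp5j2 (0.60 ± 0.21), Uqcr11 (0.52 ± 0.16), the brighter Atp5g1 probe (0.49 ± 0.18), Ndufa1 (0.48 ± 0.17), the dimmer Cox6a2 probe (0.48 ± 0.19) and the dimmer Cox7a2 probe (0.41 ± 0.16), all at adjusted p = 0.764. They were chosen by p after their values were seen. Both lower-dose arrays lay above both controls for 33 of 88 member probes, against 18.5% of all probes, and below them for 7, against 16.7%. The median member change was 0.17, beside −0.001 over all probes. It was 0.34 on values without normalization, where the median of all probes was 0.22, and 0.09 with equal array medians. The 4 complex II subunits all had negative values, from −0.24 to −0.11.

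The higher dose was also set against the lower one, with the same higher-dose arrays as above. Relative to the lower dose, 47 member probes were higher, against 6.78% of all probes, and 2 were lower, against 6.95%. The median change was 0.86, beside 0.00 over all probes. Ndufs1 (−1.28 ± 0.19, adjusted p = 0.0224) and Sdha (−0.85 ± 0.19, adjusted p = 0.0472) were again the 2 called lower. Sdhc (1.08 ± 0.23, adjusted p = 0.0425), Cox4i1 (0.64 ± 0.15, adjusted p = 0.0479), Cox5b (1.12 ± 0.21, adjusted p = 0.0335) and Cox7a2l (1.01 ± 0.18, adjusted p = 0.0289) were called higher here and not against control, a difference between comparisons that was not tested. Conversely, Ndufa6, Ndufa13, the brightest Ndufv3 probe, Uqcr10 and the brighter Cox7a2 probe were called higher against control and not here. The count of 47 became 0 without any 1 of the 6 arrays or with only these 2 groups in the fit, and 22 with the replicate block. The count of 2 became 0 with only these 2 groups and 1 with the block. The background fell too, to 0.00757% higher and 0.0189% lower with only these 2 groups, and 2.85% and 2.43% with the block. When 1 array was left out, the median member change stayed between 0.79 and 0.88.

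The members were short genes, and their change at the higher dose is given here beside gene span. Their median span was 7.45 kb in the RefSeq annotation of assembly GRCm38.p6, against 20.4 kb over all named probes with a span. Over the 88 member probes, the median span was 6.81 kb for the 48 called higher, 7.84 kb for 38 not called and 30.6 kb for the 2 called lower. Spearman's rho between span and change was −0.21 over the 88 member probes and −0.19 over 20339 probes with a span, values across genes that share their arrays. Over probes above the median probe, rho was −0.32 for 76 member probes and −0.33 for all 11360. After each array's trend with span was removed over 20339 probes, 46 member probes were called higher and 2 lower, with a median of 0.86. Of all 20339 probes, 6.77% were called higher and 5.73% lower in this fit, with a median of −0.025. Ndufaf2, called higher, spans 106.1 kb, and the called-lower genes Ndufs1 and Sdha span 33.2 and 28 kb. The part of span in the results was not tested beyond these values.

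**Figure D4:**
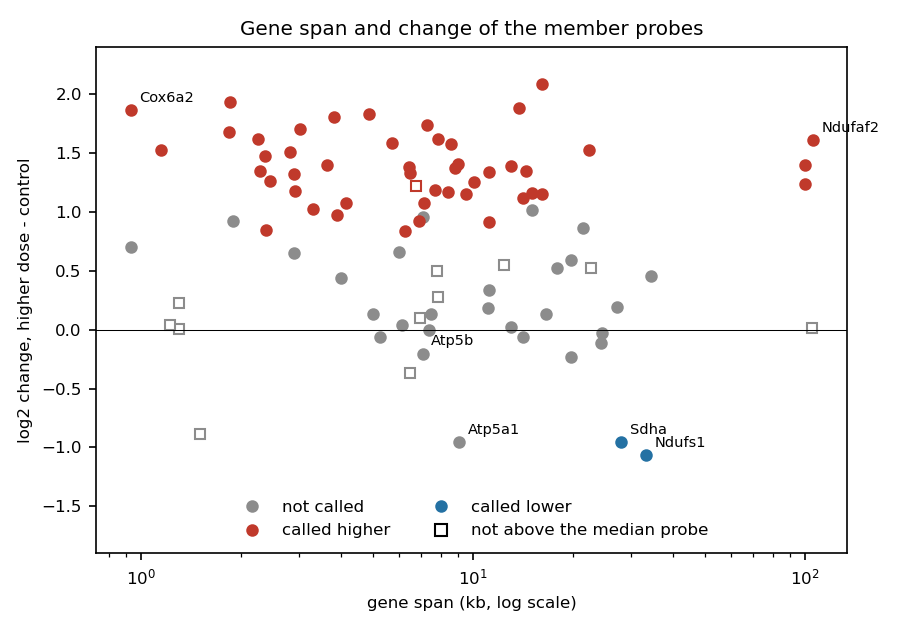
Log2 change at the higher dose against gene span (kb, log axis) for the 88 member probes. Red marks probes called higher, blue called lower and grey not called, and open squares are probes not above the median probe. The median span is 6.81 kb for the 48 probes called higher and 7.84 kb for the 38 not called.

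Promoters of 56 of the 68 subunit genes were found in RefSeq (build GRCm38.p6, 60 windows of 300 bases, 250 of them before the start). They were searched on both strands for 8-letter cores of motifs of factors known to regulate genes of mitochondrial respiration: NRF1 (CGCATGCG), ETS factors such as GABP (CCGGAAGT or ACTTCCGG) and YY1 (AAGATGGC or GCCATCTT). These cores were chosen after longer forms had been searched. The NRF1 core was in 6 of 60 windows (10%), beside 2.8% of 17303 windows of all genes with a named probe. The ETS core was in 3 (5%), beside 5.61%, and the YY1 core in 8 (13.3%), beside 3.35%. Among the 40 windows of genes called higher at the higher dose, the counts were 5, 3 and 6, and among the 20 of the other subunit genes 1, 0 and 2. A match is a description of these letters and not of binding. The stretches below show the NRF1 and ETS matches that do not lie across the start, with the core in capitals and the coding strand read 5′ to 3′. Sdha, which fell, is shown by the 80 bases before its start. It had no match to these exact letters, and neither did most windows of the subunit genes.
Ndufa8, chr2:36049339-36049418, minus strand: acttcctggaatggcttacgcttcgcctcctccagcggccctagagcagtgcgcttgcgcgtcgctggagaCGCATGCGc
Atp5k, chr5:108434404-108434483, minus strand: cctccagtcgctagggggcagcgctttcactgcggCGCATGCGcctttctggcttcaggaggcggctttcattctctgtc
Cox6a1, chr5:115349075-115349154, minus strand: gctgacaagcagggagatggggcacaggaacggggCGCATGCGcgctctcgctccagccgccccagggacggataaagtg
Uqcrc1, chr9:108936668-108936697, plus strand: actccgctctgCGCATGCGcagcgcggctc
Ndufa11, chr17:56717668-56717747, plus strand: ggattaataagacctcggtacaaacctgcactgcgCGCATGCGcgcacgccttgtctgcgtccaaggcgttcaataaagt
Ndufs3, chr2:90904692-90904721, minus strand: ACTTCCGGtccgtgcccttggggctccgtg
Uqcr11, chr10:80406843-80406922, minus strand: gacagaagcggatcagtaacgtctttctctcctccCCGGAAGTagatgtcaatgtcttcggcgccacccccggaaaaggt
Sdha, chr13:74350241-74350320, minus strand: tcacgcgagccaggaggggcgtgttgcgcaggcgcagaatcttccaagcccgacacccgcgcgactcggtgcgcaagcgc

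The NRF1 core began 9, 49, 59 and 161 bases before the start in Ndufa8, Atp5k, Ndufa11 and Cox6a1. These genes were called higher by their brightest probe (1.39 ± 0.18, 1.52 ± 0.24, 1.33 ± 0.21 and 1.02 ± 0.15). It also lay at base 32 of the transcribed part of Uqcrc1, which was not called, so this core was found in genes called and not called. The ETS core lay 66 bases before the start of Uqcr11 and at the start of Ndufs3, both called higher.

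Other genes of the same system were followed as lists, without the members above, and counted in probes at the higher dose, where the background was 5.55% of all probes higher and 5.06% lower, or 29.1% in either direction at an unadjusted p under 0.05. Of 35 probes for assembly factors of complexes II to V (32 of 36 genes), 14 were higher and 1 lower, with a median of 0.66. Coa3, which helps to build complex IV, read 1841 and 2347 units in the controls, 2285 and 2794 at the lower dose and 7192 and 9034 at the higher dose (1.96 ± 0.22, adjusted p = 0.0204). Uqcc2, a complex III assembly factor, rose 3.55-fold (1.83 ± 0.14, adjusted p = 0.0165). Of 9 probes for complex I assembly factors not named Nduf, 2 were higher and 0 lower (median 0.22): Tmem126b (1.42 ± 0.18, adjusted p = 0.0204) and Dmac1 (1.25 ± 0.24, adjusted p = 0.0379). Of 25 probes for the import machinery of the mitochondrial membranes, 7 were higher and 0 lower (median 0.53), among them Timm10b (1.61 ± 0.15, adjusted p = 0.0186) and Timm8b (1.53 ± 0.19, adjusted p = 0.0204).

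Of 14 probes for cytochrome c and coenzyme Q synthesis, 2 were higher and 1 lower (median 0.15), the former being the ubiquinone enzymes Coq5 (1.05 ± 0.15, adjusted p = 0.0244) and Coq7 (1.17 ± 0.17, adjusted p = 0.0246). Of 10 probes for carriers and channels, 0 were higher and 2 lower in limma (median −0.38), and 3 of 10, near the background share, had an unadjusted p under 0.05, all of them lower. Vdac1, the main channel of the outer membrane, read 49165 and 51032 units in the controls, 44918 and 51620 at the lower dose and 25752 and 30401 at the higher dose (−0.84 ± 0.17, adjusted p = 0.043), and a Ucp2 probe, dim at 33 to 93 units on all arrays, fell by 1.33 (SE 0.21, adjusted p = 0.0272). Of 17 probes for regulators of mitochondrial biogenesis and transcription, 0 were called by limma (median −0.21) and 7 had an unadjusted p under 0.05, 1 higher and the rest lower, with Esrra at 0.65 ± 0.15 (adjusted p = 0.0534) and Gabpa, the DNA-binding subunit of GABP, at −0.96 ± 0.22 (adjusted p = 0.0557). The subunits encoded in mitochondrial DNA were not analysed here.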

How the data were processed

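The deposited intensity of each probe is linear, a whole number between −21 and 65489, read from Cy5-labelled cDNA on Phalanx OneArray arrays, per the labels' protocols. Some lie below 0, so background had been subtracted. The submitters' processing notes name RMA, which gives log values of equal distribution, and these are neither. The scanner and the background correction are not given here. Groups came from sample titles.

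Intensities were quantile-normalized, values under 1 set to 1, and log2 taken. All 6 arrays entered a single fit (limma 3.58.1, R 4.3.3, lmFit followed by eBayes, 3 residual degrees of freedom, two-sided, Benjamini-Hochberg over 26423 probes). The fit was tested on simulated data. The old platform annotation gives 1 symbol for 20377 probes, several for 0, and 6046 are unnamed here. Symbols were updated through RefSeq (GRCm38.p6; 18213 exact, 2126 by synonym, 38 kept). No detection flags were used. The members, lists and tests were chosen with earlier results of these data known. Named were, per complex, the 4 members above the median probe with the smallest p at the higher dose, all called lower, a fixed set of core subunits, genes with disagreeing probes, complex IV isoforms and 2 genes a list; members outside this rule are named with their role or value. Figures used Python 3.11.15 and matplotlib 3.10.9. Alternatives were other normalizations, log2(value + 16), a filter on dim probes, the replicate block, only the groups compared, a trended prior, removal of the span trend and leaving out each array.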

Additional observations from a re-analysis of the deposited data

How the results depend on the processing

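With 14 alternatives, the number of member probes called at the higher dose against control ranged as follows. Higher calls numbered 48 in the reported fit and 46 to 57 with other scalings, log2(value + 16), the dim-probe filter, a trended prior or the span trend removed; they were 34 with only the groups compared, 0 with the replicate block, and 0 to 34 when 1 array was left out. Lower calls, 2 as reported, were 3 with log2(value + 16), with the dim-probe filter and with a trended prior, 2 with the span trend removed, 1 with equal array medians, 0 without normalization, 0 with only the groups compared, 0 with the replicate block and 0 to 0 when 1 array was left out. For the higher against the lower dose, the 47 higher calls were 41 to 57 with the same settings, 0 with only the groups compared, 22 with the replicate block and 0 to 0 when 1 array was left out; the 2 lower calls were 3 with log2(value + 16), the dim-probe filter and a trended prior, 2 without normalization, 1 with equal array medians, with the span trend removed and with the replicate block, and 0 with only the groups compared or 1 array left out. The lower dose against control gave 0 calls throughout. The replicate numbers are not stated to pair the samples, and the differences between replicates 1 and 2 correlated at 0.313 between control and higher dose, −0.226 between the doses and 0.0326 between control and lower dose. The fits without 1 array or with 2 groups have fewer residual degrees of freedom. The background moved with the settings. At the higher dose against control, 4.52% to 8.71% of probes were called higher with the scaling, offset, prior and span settings. Among the 13211 probes left by the dim-probe filter, 76 of them members, 19.2% were higher and 22.6% lower. For the higher against the lower dose, these shares of higher calls were 4.27% to 10.1%, and 22.1% with the filter.

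Of 748 values of the 54 named probes under the alternatives, 533 kept direction and side of the threshold, 168 lost a call, 26 gained one and 21 changed sign, none of a probe called in the reported fit. Ndufv1 turned to 0.302 without normalization and 0.229 with equal medians, and Uqcrc2 to 0.257 and 0.183. With the span trend removed, Uqcrc1 turned to −0.025, Uqcrfs1 to −0.038, Atp5c1 to 0.0501, the second Cox6b2 probe to −0.187 and Cox8c to −0.148. Without normalization, Atp5c1 turned to 0.0004 and Cox7b2 to −0.00546, and with equal medians Cox7b2 turned to −0.079. When 1 array was left out, values crossed 0 in Ndufv1 (−0.129 to 0.00308), Uqcrc1 (−0.0885 to 0.135), Atp5c1 (−0.0617 to 0.00348), the second Ndufa11 probe (−0.832 to 0.0955), the second Cox6b2 probe (−0.124 to 0.13), Cox7b2 (−0.366 to 0.4) and Cox8c (−0.146 to 0.229). The cause was not tested. The number of arrays, and the ceiling for Atp5g3, limit the precision.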
